A study of Mus musculus with 10 samples.

Results

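The 34 genes described here encode proteins of megakaryocytes and platelets, and they were taken by symbol from a list of receptors, granule proteins, signalling enzymes and cytoskeletal proteins. All 34 were found among the 51670 gene models of the deposited table. RNA came from bone marrow hematopoietic stem cells that carried CD150 and lacked CD48 within the LSK gate (lineage-negative, Sca-1+, Kit+). They were sorted from wild-type mice of strain C57BL/6J after an intraperitoneal injection of Tunicamycin at 2 mg/kg (5 libraries) or of DMSO, the solvent (5 libraries). Tunicamycin inhibits N-glycosylation of new proteins and thereby stresses the endoplasmic reticulum. The labels give no age, sex, interval between injection and sorting, cell number or pooling of animals, and the p-values below measure the spread between these libraries, which may be technical in part.

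Megakaryocytes are the bone marrow cells that shed platelets. Their program is built by GATA, ETS and RUNX transcription factors under the hormone thrombopoietin, and it includes an adhesion receptor for von Willebrand factor (the GPIb-IX-V complex), the fibrinogen receptor integrin alphaIIb-beta3, receptors that signal through ITAM motifs, and alpha granules filled with chemokines and adhesive proteins. Part of this program is also transcribed in mouse hematopoietic stem cells, a fraction of which are biased toward platelet production and carry transcripts such as Vwf. Several members are shared with other cells, for example Vwf and Selp with endothelium, Lat with T cells and mast cells, and Cd9 and Plek with myeloid cells.

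The libraries differed in ways that the labels do not give. Tunicamycin replicate 1 was deposited as whole numbers only, while the other 9 libraries have decimals. DMSO replicates 3 and 5 held Y-linked transcripts (61.3 and 51.6 FPKM summed over 4 genes, at most 0.053 FPKM in the other 8 libraries). The X-linked transcript Xist was at 0.1495 and 0.0654 FPKM in DMSO replicates 3 and 5 and at 28.2 to 35.6 FPKM in the other 8. Both libraries of this kind were in the DMSO group, so this difference is unbalanced between the treatments. Steps between low values put the depth of the 9 libraries at about 18500000 reads (DMSO replicate 3) to 60200000 reads (DMSO replicate 4), so a single read on a gene of 2 kb equalled 0.00831 to 0.0270 FPKM. Transcripts of the gate were present: Kit was at 74 to 137 FPKM after tunicamycin and 83.7 to 125 FPKM after DMSO, and Slamf1, which encodes CD150, at 8.32 to 13.1 FPKM after tunicamycin and 3.80 to 8.49 FPKM after DMSO. Ly6a, which encodes Sca-1, was at 110 to 170 FPKM after tunicamycin and 72.9 to 101 FPKM after DMSO. Of the 9 listed genes of the gate and of stem cell identity, 6 passed as higher and 3 did not pass, against 29.9% higher over all tested genes. Cd48, the marker that the gate selects against, was at 53.1 to 75.6 FPKM after tunicamycin and 17 to 38.1 FPKM after DMSO. Of the 5 tested genes of its list, Cd48, Flt3 and Ptprc passed as higher, and Cd34 and Il7r did not pass. Markers of other cells moved with the treatment as well. All 16 macrophage markers passed as higher (summed level 2469.6 to 6173 FPKM after tunicamycin and 807 to 1489.8 FPKM after DMSO), as did 12 of the 13 tested endothelial markers (159 to 404 FPKM after tunicamycin and 80.3 to 154 FPKM after DMSO). Over all tested genes 29.9% passed as higher. The macrophage marker Marco and the endothelial markers Cdh5, Flt1 and Ptprb reached 1 FPKM in 1 DMSO library each and so could be tested only through the treated group. All 8 immediate early genes rose too (4041 to 5674 FPKM in sum after tunicamycin and 776 to 1488.9 FPKM after DMSO), and mitochondrial transcripts took 2.88% to 7.22% of the FPKM after tunicamycin and 7.96% to 11.2% after DMSO. The part of these in the results below was not tested.

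The promoters of 4 members are given here because the results turn on these genes. Pf4 and Ppbp are neighbours of which only Pf4 passed the test as higher. Selp changed most, and Gp1ba belongs to the receptor whose partner subunit was barely detected. RefSeq promoter sequences (GRCm38.p6) were matched for 27 of the 34 members. Each line is the 250 bases before the annotated start of the gene, 5′ to 3′ on the strand of the gene. Capitals mark matches, on either strand, to GATA letters (AGATAA or AGATAG, and TGATAA or TGATAG) or ETS letters (AGGAAG or CGGAAG). The positions are chr5:90772185-90772434, plus strand (Pf4), chr5:90768268-90768517, plus strand (Ppbp), chr1:164115014-164115263, plus strand (Selp), chr11:70638872-70639121, plus strand (Gp1ba).
Pf4: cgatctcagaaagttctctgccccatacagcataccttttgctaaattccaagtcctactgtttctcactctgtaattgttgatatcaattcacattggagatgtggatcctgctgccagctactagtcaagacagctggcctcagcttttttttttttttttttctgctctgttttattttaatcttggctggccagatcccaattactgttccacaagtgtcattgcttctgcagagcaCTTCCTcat
Ppbp: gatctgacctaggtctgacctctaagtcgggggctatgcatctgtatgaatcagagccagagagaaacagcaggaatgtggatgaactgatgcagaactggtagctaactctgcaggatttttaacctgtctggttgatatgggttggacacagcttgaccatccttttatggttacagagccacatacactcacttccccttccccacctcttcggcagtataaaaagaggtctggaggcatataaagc
Selp: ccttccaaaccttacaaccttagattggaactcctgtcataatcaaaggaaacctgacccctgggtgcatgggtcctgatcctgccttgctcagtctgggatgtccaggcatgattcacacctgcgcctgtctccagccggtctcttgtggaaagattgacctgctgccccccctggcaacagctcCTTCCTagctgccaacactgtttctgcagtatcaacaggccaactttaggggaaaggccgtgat
Gp1ba: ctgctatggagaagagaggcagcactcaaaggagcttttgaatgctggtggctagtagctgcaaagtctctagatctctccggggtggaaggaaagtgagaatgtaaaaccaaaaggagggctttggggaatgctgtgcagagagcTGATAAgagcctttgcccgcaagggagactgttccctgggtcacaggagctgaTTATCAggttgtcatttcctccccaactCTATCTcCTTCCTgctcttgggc

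Of the promoters shown, that of Gp1ba held 3 matches to the GATA letters and 1 to the ETS letters. Those of Pf4 and Selp held 1 ETS match each, and that of Ppbp none. Among the 27 members with a promoter, 9 (33.3%) held GATA letters, against 26.5% of all 32851 promoters of this length. ETS letters occurred in 13 of the 27 (48.1%), against 39.2% of all. The letters TGAGTCA, bound by NF-E2 and AP-1 factors, occurred in 2 (7.41%), against 4.46% of all. For Gp5 and Tubb1 the bases after the start matched no annotated transcript of the gene, so the position of their promoters is uncertain. Both are in these counts, Gp5 with GATA and ETS letters and Tubb1 with ETS letters. None of the searched motifs overlapped another in the promoters shown. These matches describe the sequence only.

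Most members were higher after tunicamycin and none passed the test as lower. Of the 34 genes, 33 reached 1 FPKM in at least 5 of the 10 libraries and were tested, and each of the 33 also reached it in at least 4 of the 5 DMSO libraries, so none was tested through its treated values alone. With limma on log2(FPKM + 1), 26 of the 33 rose at an adjusted p under 0.05 and 0 fell. Over all 14727 genes tested, 29.9% rose and 15.4% fell. The members were chosen with earlier results of these data known, so their counts are no independent test. The median log2 change of the 33 was 0.88, against 0.18 over all genes tested. For 19 of the 33 every tunicamycin library lay above every DMSO library, which was so for 19.2% of all tested genes, and for 0 every one lay below (11.0% of all). No member fell under any scaling, but the number that rose changed: with every library set to an equal median, 19 rose and 0 fell, against 20.5% and 27.1% of all genes. Under that setting the log2 changes of the members differed from those reported by -0.26 to -0.16. Without DMSO replicates 3 and 5, 21 rose and 0 fell, against 22.1% and 11.4% of all genes. In RNA from a sorted population, more cells of a type and more RNA per cell cannot be told apart.

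**Figure D1:**
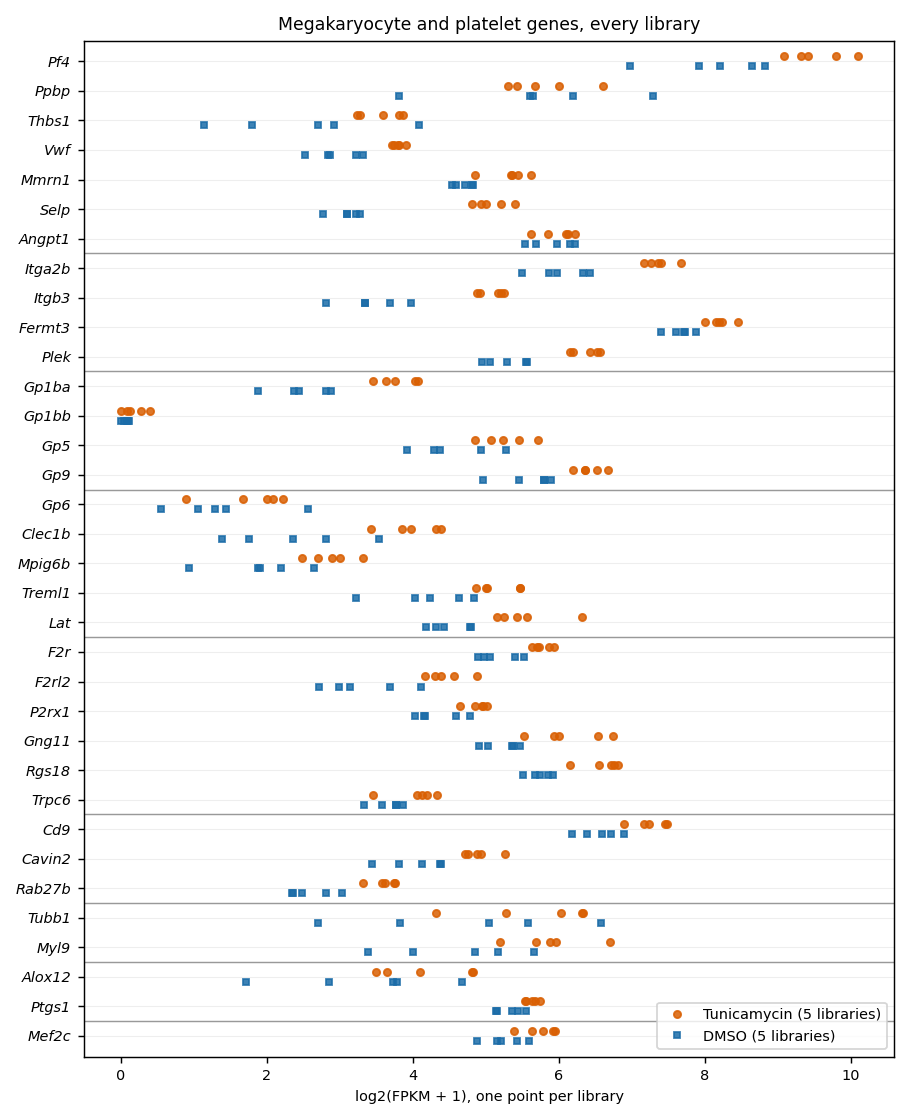
Level of each of the 34 members as log2(FPKM + 1) on the horizontal axis, with 1 orange circle per tunicamycin library and 1 blue square per DMSO library. Lines separate the functional groups. The circles of Selp, Itgb3, Itga2b and Plek lie apart from the squares, the squares of Tubb1, Thbs1 and Ppbp are widely spread, and both groups of Gp1bb lie near 0.

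**Figure D2:**
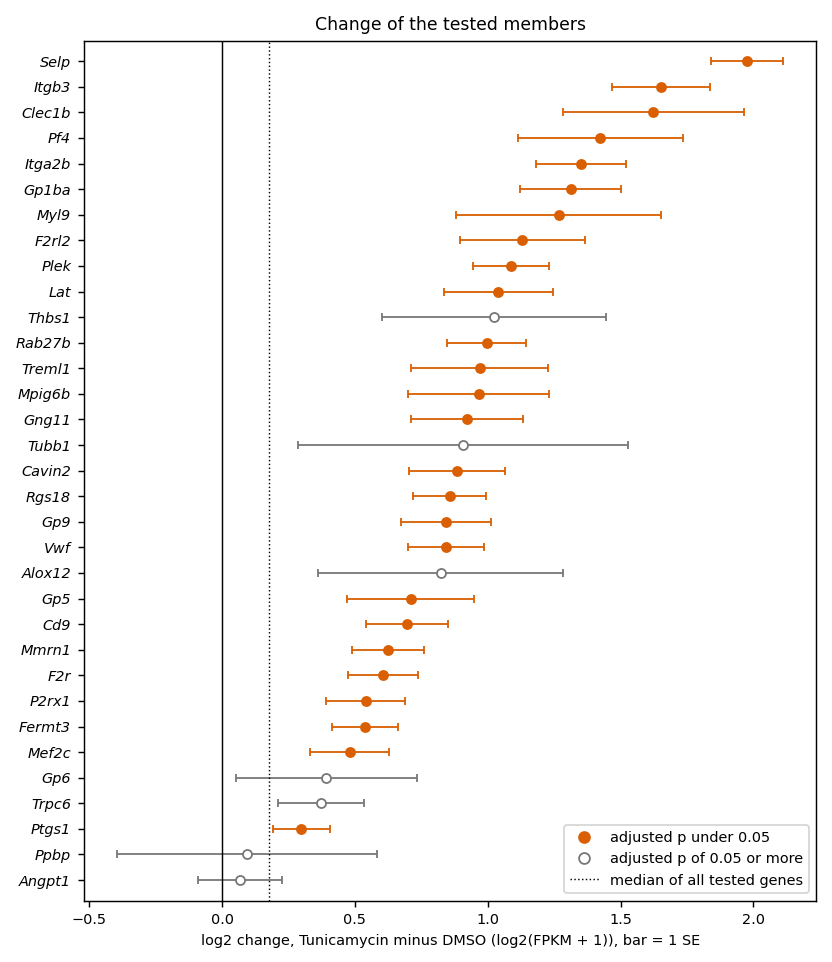
Log2 change (tunicamycin minus DMSO, on log2(FPKM + 1)) of the 33 tested members, with bars of 1 SE, from 5 libraries per group. Filled points passed an adjusted p of 0.05 in limma. Selp stands at the top with 1.98, Ppbp and Angpt1 at the bottom with 0.09 and 0.07, and the dotted line marks the median of all tested genes, 0.18.

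Among the alpha-granule and adhesion genes, 4 of 7 rose, against 29.9% of all tested genes, and 3 did not pass the test. Selp encodes P-selectin, which activated platelets and endothelium expose to capture leukocytes (chromosome 1, chr1:164115264-164150026, GRCm38). Its level was 27, 41.2, 31.1, 35.8 and 29.4 FPKM in the tunicamycin libraries, against 8.71, 7.55, 5.82, 8.31 and 7.53 FPKM in the DMSO libraries. Every treated library lay far above the highest DMSO library (log2 change 1.98 ± 0.13 SE, adjusted p 1.03e-06), and the fold of the means was 4.34. Pf4, platelet factor 4, is a chemokine that binds heparin, and it was the most abundant member. It stood at 543, 638, 883, 677 and 1088 FPKM in the tunicamycin libraries, against 400.0, 454, 125, 294 and 241 FPKM in the DMSO libraries. The groups did not overlap, and the increase was 2.53-fold in means (log2 change 1.42 ± 0.31 SE, adjusted p 0.00267). Vwf, which tethers platelets to collagen, was at 13, 12.4, 14.1, 12.1 and 13 FPKM in the tunicamycin libraries, against 8.95, 8.37, 4.74, 6.18 and 6.29 FPKM in the DMSO libraries. The treated libraries lay close together and all above the DMSO libraries (log2 change 0.84 ± 0.14 SE, adjusted p 0.000517). Mmrn1 encodes multimerin, a carrier of coagulation factor V, and stood at 28, 42.2, 40.0, 39.7 and 48.1 FPKM in the tunicamycin libraries, against 22.3, 23.1, 27.3, 25.3 and 27.1 FPKM in the DMSO libraries. It showed little spread after DMSO and no overlap between groups (log2 change 0.62 ± 0.13 SE, adjusted p 0.00253, or 0.37 with equal medians).

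Thbs1, Ppbp and Angpt1 were the granule-related genes without a call. Thbs1 encodes thrombospondin, an adhesive glycoprotein, and was at 13, 13.6, 8.65, 11.1 and 8.40 FPKM in the tunicamycin libraries, against 16.0, 5.50, 1.2, 6.6 and 2.49 FPKM in the DMSO libraries. The groups overlapped, with DMSO replicate 1 above every treated library (log2 change 1.02 ± 0.42 SE, adjusted p 0.0639), and without that library the change was 1.41 (adjusted p 0.00504). It also passed with TPM scaling (1.13, adjusted p 0.0377). Angpt1, a ligand of the receptor Tie2, was at 48, 67.8, 69.0, 73.5 and 56.5 FPKM in the tunicamycin libraries, against 45.3, 61.9, 70.4, 73.3 and 50.7 FPKM in the DMSO libraries. Both groups covered a similar range (log2 change 0.07 ± 0.16 SE, adjusted p 0.755). Endothelial markers rose in the same libraries, among them Cldn5 (log2 change 2.21 ± 0.38 SE, adjusted p 0.000577), while the endothelial marker Lyve1 was at 0 to 0.683 FPKM after tunicamycin and 0.0541 to 0.340 FPKM after DMSO. How much of the Selp, Vwf and Thbs1 signal came with endothelial RNA was not tested.

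Ppbp, the precursor of the neutrophil-attracting chemokine NAP-2, did not pass the test, whereas its neighbour Pf4 did. Both lie on the plus strand of chromosome 5, Ppbp at chr5:90768518-90770063 and Pf4 at chr5:90772435-90773383, with 2371 bases between them. Ppbp stood at 42, 96.4, 38.7, 62.8 and 50.2 FPKM in the tunicamycin libraries, against 155, 47.9, 13, 71.9 and 49.2 FPKM in the DMSO libraries. DMSO replicate 1 was the highest of all 10 libraries and DMSO replicate 3 the lowest, so the groups overlapped fully (log2 change 0.09 ± 0.49 SE, adjusted p 0.895). The means ran the other way, at 58.0 FPKM after tunicamycin and 67.5 FPKM after DMSO, a fold of 0.86. The Pf4 to Ppbp ratio of FPKM was 12.9, 6.61, 22.8, 10.8 and 21.7 in the tunicamycin libraries, against 2.58, 9.48, 9.57, 4.08 and 4.90 in the DMSO libraries. On the log2 scale the difference between both genes averaged 3.73 ± 0.74 after tunicamycin and 2.40 ± 0.79 after DMSO (SD, n = 5 each). The exact two-sided permutation test of this difference, which was chosen after the values were seen, gave p = 0.0397 for a gap of 1.33. It rests on few libraries: with 1 library left out the exact p ranged from 0.0159 to 0.0794, and it was above 0.05 for 7 of the 10 libraries (each one except Tunicamycin replicate 2 and DMSO replicates 2 and 3). Without DMSO replicates 3 and 5 together the exact p was 0.0714.

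**Figure D3:**
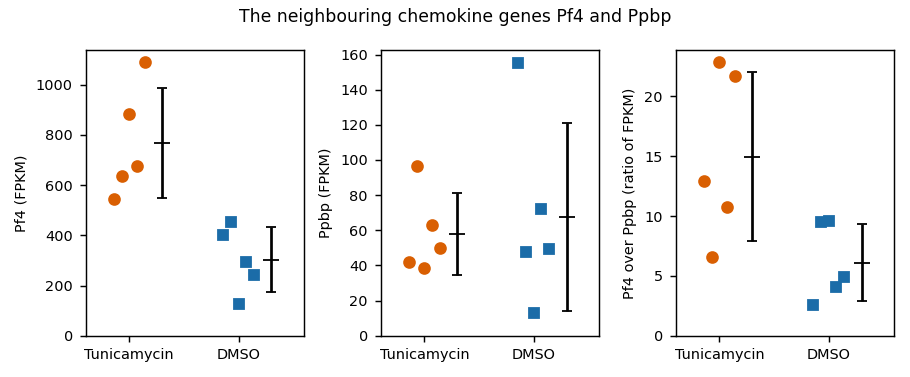
FPKM of Pf4 (left), FPKM of Ppbp (middle) and their ratio (right) in each library, tunicamycin as orange circles and DMSO as blue squares, with the mean and SD beside the points (n = 5 per group). Pf4 separates the groups, while Ppbp does not, with DMSO libraries as high as 155 FPKM and as low as 13 FPKM.

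All 4 genes of integrin alphaIIb-beta3 and its activation rose, against 29.9% of all tested genes. In each the groups did not overlap, against 19.2% of all tested genes in that direction. Itga2b encodes the alphaIIb subunit, also known as CD41 (chr11:102453297-102470122, minus strand), and stood at 202, 152, 163, 143 and 168 FPKM in the tunicamycin libraries, against 79.8, 85.1, 44.1, 61.9 and 57.2 FPKM in the DMSO libraries. The highest DMSO library was well below the lowest treated one, and the fold of the means was 2.52 (log2 change 1.35 ± 0.17 SE, adjusted p 6.73e-05). Itgb3, the beta3 subunit that also pairs with the alphaV integrin, was at 37, 29.3, 34.9, 36.1 and 28.4 FPKM in the tunicamycin libraries, against 14.7, 11.9, 6.01, 9.20 and 9.15 FPKM in the DMSO libraries. Its 3.25-fold increase was the second largest log2 change of the members (log2 change 1.65 ± 0.18 SE, adjusted p 3.01e-05). Plek encodes pleckstrin, a main protein kinase C substrate of platelets, and was at 85, 71.9, 93.9, 90.5 and 70.2 FPKM in the tunicamycin libraries, against 45.8, 46.3, 32.4, 38.1 and 29.9 FPKM in the DMSO libraries. The groups were again apart (log2 change 1.09 ± 0.14 SE, adjusted p 9.17e-05). Fermt3 encodes kindlin-3, which binds the beta3 tail and activates the integrin in blood cells, and was at 283, 299.6, 291, 255 and 348 FPKM in the tunicamycin libraries, against 209, 235, 168, 211 and 193 FPKM in the DMSO libraries. Its change was the smallest of the 4 (log2 change 0.54 ± 0.12 SE, adjusted p 0.00362) and did not pass with equal medians (0.28, adjusted p 0.0873). Macrophage markers, whose cells also express Fermt3 and Plek, rose in the same libraries, and their part was not tested.

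The genes of the GPIb-IX-V complex, the platelet receptor for von Willebrand factor, rose in the 3 cases that could be tested. Of all tested genes 29.9% rose. Gp1ba, the subunit that binds von Willebrand factor, was at 10, 15.4, 12.5, 11.4 and 15.9 FPKM in the tunicamycin libraries, against 6.38, 6.05, 2.67, 4.42 and 4.19 FPKM in the DMSO libraries. All treated libraries lay above all DMSO libraries (log2 change 1.31 ± 0.19 SE, adjusted p 0.000179). Gp9, which is needed for surface display of the complex, was at 81, 101, 80.8, 71.9 and 91.0 FPKM in the tunicamycin libraries, against 54.5, 58.1, 30.3, 54.3 and 42.9 FPKM in the DMSO libraries. It too did not overlap between groups (log2 change 0.84 ± 0.17 SE, adjusted p 0.00164). Gp5, which associates with the complex, was at 43, 36.6, 32.5, 27.8 and 51.6 FPKM in the tunicamycin libraries, against 37.6, 29.5, 14.1, 18.5 and 19.7 FPKM in the DMSO libraries. Its groups overlapped through DMSO replicates 1 and 2, and its call was the least secure of the complex (log2 change 0.71 ± 0.24 SE, adjusted p 0.028). With equal medians the change no longer passed (0.46), nor did it in the fit of all genes regardless of level (adjusted p 0.0745) or without DMSO replicates 3 and 5 (0.44). With Tunicamycin replicate 1, 2 or 5 or DMSO replicate 3, 4 or 5 left out, the adjusted p was 0.0542, 0.0501, 0.0644, 0.0661, 0.0632 and 0.0637.

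Gp1bb, whose product is disulfide-linked to that of Gp1ba, was barely detected in any library and was not tested. It stood at 0, 0.0580, 0.212, 0.0946 and 0.324 FPKM in the tunicamycin libraries, against 0.0629, 0.0744, 0, 0.0793 and 0.0281 FPKM in the DMSO libraries. These values lie far below those of its 3 partner genes in the same libraries. In the GENCODE M21 annotation, 91.1% of the 2087 exon bases of Gp1bb (chr16:18620317-18622403, minus strand) also belong to exons of Sept5 on the same strand, and 41.5% to exons of Gm49601. Sept5 and Gm49601 were themselves at no more than 0.0896 and 0.0501 FPKM in any library. The labels name neither the annotation nor the rule for reads in overlapping genes, and the Gp1bb values are therefore uncertain. No other member shared more than 14.2% of its exon bases with another gene (Angpt1, with an antisense gene).

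Of the 5 genes of ITAM signalling and its control, 4 rose, against 29.9% of all tested genes. Clec1b encodes CLEC-2, the receptor for podoplanin, and was at 19, 19.8, 13.4, 14.7 and 9.74 FPKM in the tunicamycin libraries, against 10.6, 6.00, 1.62, 4.12 and 2.37 FPKM in the DMSO libraries. The lowest treated library fell below DMSO replicate 1, but the change was the third largest (log2 change 1.62 ± 0.34 SE, adjusted p 0.00214, or 1.08 with a pseudocount of 5). Treml1, a receptor of alpha granules that carries an inhibitory motif, was at 31, 43.3, 43.2, 28.1 and 31.4 FPKM in the tunicamycin libraries, against 27.7, 23.9, 8.30, 17.8 and 15.4 FPKM in the DMSO libraries. Its groups did not overlap by a narrow margin (log2 change 0.97 ± 0.26 SE, adjusted p 0.00866), and without DMSO replicates 3 and 5 the change was 0.59 (adjusted p 0.0356). Mpig6b, which encodes the inhibitory receptor G6b-B, was at 4.57 to 8.97 FPKM after tunicamycin and 0.905 to 5.26 FPKM after DMSO (log2 change 0.97 ± 0.27 SE, adjusted p 0.0104). Its call was lost with quantile normalization (adjusted p 0.0651), and its change was 0.63 without DMSO replicates 3 and 5 and 0.53 with a pseudocount of 5.

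Lat, a membrane adaptor of ITAM signalling, was at 37, 46.5, 42.1, 34.7 and 78.4 FPKM in the tunicamycin libraries, against 19.0, 26.9, 20.6, 26.6 and 17.2 FPKM in the DMSO libraries. Tunicamycin replicate 5 was far above the other treated libraries, and even the lowest treated library was above all DMSO libraries (log2 change 1.04 ± 0.21 SE, adjusted p 0.00145). Lat is best known from T cells, and the T cell genes Cd3d, Cd3e, Cd3g, Cd8a, Cd5 and Cd2 were at most 1.62 FPKM after tunicamycin and 0.821 FPKM after DMSO. Of the other T cell genes listed, Cd4 rose without overlap, at 17.9 ± 3.55 FPKM after tunicamycin and 3.83 ± 1.35 FPKM after DMSO (SD, n = 5 each; log2 change 1.99, adjusted p 1.24e-05). Lck did not pass, at 7.85 ± 2.78 FPKM after tunicamycin and 8.40 ± 2.21 FPKM after DMSO. The part of T cell RNA in the Lat values was not tested. None of the 5 tested mast cell and basophil markers passed the test, and their summed level, 2 untested markers included, was 12.6 to 75.8 FPKM after tunicamycin and 5.62 to 29.5 FPKM after DMSO. Gp6, the collagen receptor, was low, at 3, 3.66, 2.20, 3.24 and 0.861 FPKM in the tunicamycin libraries, against 4.94, 1.71, 0.473, 1.44 and 1.09 FPKM in the DMSO libraries. Its groups overlapped and it did not pass (log2 change 0.39 ± 0.34 SE, adjusted p 0.372).

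Among receptors and signal transducers for thrombin, purines and G proteins, 5 of 6 rose, against 29.9% of all tested genes. F2rl2 encodes PAR3, a thrombin-binding cofactor of mouse platelets, and was at 20, 17, 22.6, 18.8 and 28.5 FPKM in the tunicamycin libraries, against 16.3, 11.9, 5.60, 6.92 and 7.84 FPKM in the DMSO libraries. The groups were separate, with DMSO replicate 1 nearest to the treated libraries (log2 change 1.13 ± 0.24 SE, adjusted p 0.00203). F2r, the thrombin receptor PAR1, was more abundant and changed less, at 60, 51.2, 57.2, 48.8 and 51.8 FPKM in the tunicamycin libraries, against 41.3, 44.8, 28.7, 30.4 and 32.2 FPKM in the DMSO libraries. Its call (log2 change 0.61 ± 0.13 SE, adjusted p 0.00276) was lost with equal medians (0.35, adjusted p 0.0952). Rgs18, which accelerates the GTPase step of G proteins in platelets, was at 70, 93.0, 107, 104 and 111 FPKM in the tunicamycin libraries, against 59.6, 56.7, 50.2, 52.7 and 44.5 FPKM in the DMSO libraries. It was higher in every treated library (log2 change 0.86 ± 0.14 SE, adjusted p 0.000331).

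Gng11, a G protein gamma subunit, was at 45, 106, 60.3, 62.9 and 91.8 FPKM in the tunicamycin libraries, against 40.3, 40.1, 31.6, 43.4 and 28.9 FPKM in the DMSO libraries. The treated libraries were widely spread but all above the DMSO libraries (log2 change 0.92 ± 0.21 SE, adjusted p 0.00351). P2rx1, an ATP-gated channel, was at 24, 29.9, 31.5, 30.0 and 27.9 FPKM in the tunicamycin libraries, against 17, 23.1, 16.8, 26.5 and 15.3 FPKM in the DMSO libraries. Its small increase (log2 change 0.54 ± 0.15 SE, adjusted p 0.0104) was lost with equal medians (0.29) and without DMSO replicates 3 and 5 (0.37, adjusted p 0.0979). Trpc6, a cation channel opened by diacylglycerol, did not pass (log2 change 0.37 ± 0.16 SE, adjusted p 0.0787). It stood at 10, 15.6, 19.1, 17.3 and 16.5 FPKM in the tunicamycin libraries, against 9.09, 12.7, 13.5, 12.6 and 10.9 FPKM in the DMSO libraries. Without Tunicamycin replicate 1, the library deposited in whole numbers, the change was 0.52 (adjusted p 0.00418), and with TPM scaling it was 0.49 (adjusted p 0.0238).

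The 3 genes of membrane organisation and trafficking rose with no overlap between groups, against 19.2% of all tested genes. Cd9, a tetraspanin abundant on platelets, was at 118, 177, 143, 149.5 and 174 FPKM in the tunicamycin libraries, against 117, 95.5, 71.4, 104 and 82.3 FPKM in the DMSO libraries. DMSO replicate 1 came within 1 FPKM of the lowest treated library (log2 change 0.70 ± 0.15 SE, adjusted p 0.00292, or 0.44 with equal medians). Cavin2, a protein of caveolae, was at 26, 29.7, 28.5, 25.2 and 37.4 FPKM in the tunicamycin libraries, against 19.9, 19.7, 9.89, 16.4 and 13 FPKM in the DMSO libraries. Its change was 0.88 ± 0.18 (SE; adjusted p 0.00175). Rab27b, a GTPase of dense granule secretion, was at 9, 11.3, 12.4, 11.0 and 12.5 FPKM in the tunicamycin libraries, against 7.17, 6.05, 4.10, 4.14 and 4.60 FPKM in the DMSO libraries. Its change was 0.995 ± 0.15 (SE; adjusted p 0.000225).

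Of the cytoskeletal genes Myl9 rose and Tubb1 did not pass, and of the eicosanoid genes Ptgs1 rose and Alox12 did not pass. Tubb1 encodes beta-1 tubulin, which builds the marginal band of platelets, and was at 79, 79.6, 37.6, 64.0 and 19.0 FPKM in the tunicamycin libraries, against 94.7, 46.9, 5.53, 31.9 and 13.2 FPKM in the DMSO libraries. Both groups covered a broad range and overlapped (log2 change 0.91 ± 0.62 SE, adjusted p 0.256, or -0.08 without DMSO replicates 3 and 5). Myl9, the regulatory light chain of non-muscle and smooth muscle myosin, was at 61, 103, 35.6, 50.4 and 57.7 FPKM in the tunicamycin libraries, against 49.7, 27.9, 9.46, 35.0 and 15.0 FPKM in the DMSO libraries. It passed the test (log2 change 1.27 ± 0.39 SE, adjusted p 0.0173), but not with equal medians (adjusted p 0.0552) or without DMSO replicates 3 and 5 (0.65, adjusted p 0.106). Alox12, platelet 12-lipoxygenase, was at 27, 27.3, 10.3, 16.1 and 11.5 FPKM in the tunicamycin libraries, against 24.5, 12.3, 2.29, 12.8 and 6.23 FPKM in the DMSO libraries. It did not pass (log2 change 0.82 ± 0.46 SE, adjusted p 0.165), whereas without DMSO replicate 1 it did (1.15, adjusted p 0.0484).

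Ptgs1, cyclooxygenase 1, had the smallest change that passed (log2 change 0.30 ± 0.11 SE, adjusted p 0.0369). It was at 50, 48.8, 52.5, 45.3 and 45.6 FPKM in the tunicamycin libraries, against 34.2, 42.3, 40.0, 46.0 and 34.6 FPKM in the DMSO libraries. The groups overlapped, and the call was lost with equal medians (0.04), quantile normalization (0.25) or all genes in the fit (adjusted p 0.125), and without DMSO replicates 3 and 5 (0.25). With DMSO replicate 1, 3 or 5 or Tunicamycin replicate 2 or 3 left out, the adjusted p was 0.0905, 0.0597, 0.0982, 0.0736 and 0.0929. Mef2c, the transcription factor among the members, which megakaryocytes share with lymphoid progenitors, was at 41, 48.4, 60.4, 59.5 and 53.9 FPKM in the tunicamycin libraries, against 34.6, 47.0, 36.0, 42.0 and 28.5 FPKM in the DMSO libraries. Its change (log2 change 0.48 ± 0.15 SE, adjusted p 0.0185) did not pass without DMSO replicate 5 (0.39, adjusted p 0.0512), without DMSO replicates 3 and 5 (0.34), with no filter on low values (adjusted p 0.0541) or with equal medians (0.22).

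The members differed in how evenly the DMSO libraries held them. In 8 of the 33 tested members the highest DMSO library was at least 5 times the lowest, against 4.75% of all tested genes. These were Tubb1 (17.1 times), Thbs1 (13.3), Ppbp (11.9), Alox12 (10.7), Gp6 (10.4), Clec1b (6.53), Mpig6b (5.81) and Myl9 (5.25). In all 8, DMSO replicate 1 was the highest DMSO library and DMSO replicate 3 the lowest, and in all 8 Tunicamycin replicate 2 was the highest treated library. Over all tested genes these 3 shares were 22.9%, 14.7% and 21.0%. For Tubb1, Thbs1, Alox12, Gp6 and Clec1b, Tunicamycin replicate 2 led Tunicamycin replicate 1 by less than 1 FPKM. Tunicamycin replicate 1 holds whole numbers only, so that order is not resolved. After tunicamycin no member spread as widely, while 8.69% of all tested genes did. At the other end stood Mmrn1 (1.23 times), Rgs18 (1.34), Ptgs1 (1.35) and Fermt3 (1.40). The median ratio of the highest to the lowest DMSO library was 1.92 for the members and 1.48 for all tested genes, and after tunicamycin it was 1.59 for the members and 1.78 for all. Tunicamycin replicate 1 was the lowest treated library in 61.8% of all tested genes and in 12 of 33 members. Its whole numbers can widen the treated spread of low genes, so the treated figures for all genes may be too high.

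Of the 7 without a call, 5 (Tubb1, Thbs1, Ppbp, Alox12 and Gp6) were the 5 with the widest DMSO spread. The other 2 (Angpt1 and Trpc6) had DMSO libraries within 1.62 and 1.49 times of each other and log2 changes of 0.07 and 0.37. The DMSO spread enters the SE behind each call, so a lack of calls among widely spread members is built into the test. DMSO replicate 1 was the highest DMSO library in 19 of 33 members, against 22.9% of all tested genes, and DMSO replicate 3 the lowest in 23 of 33, against 14.7%. DMSO replicate 3 was also the shallowest library with a depth estimate and one of the pair with Y-linked transcripts. The part of depth or sex in its low values was not tested. DMSO replicate 5, the other library with Y-linked transcripts, was the lowest in 6 of 33 members, near its share of 17.9% of all tested genes. DMSO replicates 2 and 4 were the lowest in 0 members, against 21.3% and 16.1% of all tested genes.

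**Figure D4:**
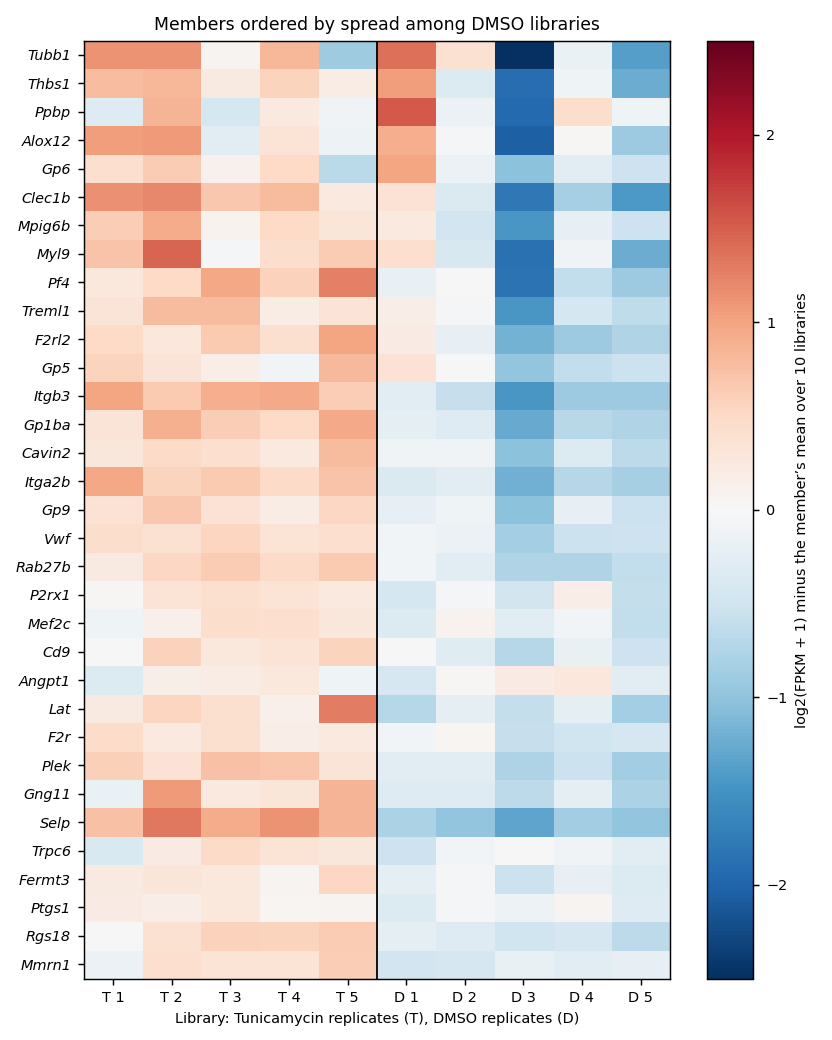
Heat map of the 33 tested members (rows) in the 10 libraries (columns, tunicamycin at the left of the black line, DMSO at the right), coloured by log2(FPKM + 1) minus the mean of the member over all libraries. Rows run from the widest to the narrowest spread among DMSO libraries. The upper rows are red in DMSO replicate 1 and blue in DMSO replicate 3, while rows such as Selp, Plek and Rgs18 are blue throughout the DMSO libraries.

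The transcription factors that drive megakaryocyte genes did not move as one. Of 20 listed, 12 rose, 2 fell and 6 did not pass, against 29.9% higher and 15.4% lower over all genes, with a median log2 change of 0.49. Gata1, the factor required by both megakaryocytes and red cell precursors, was lower: 77, 38.5, 49.4, 42.4 and 45.4 FPKM in the tunicamycin libraries, against 155, 99.9, 91.0, 98.0 and 146 FPKM in the DMSO libraries. No treated library reached the lowest DMSO library (log2 change -1.22 ± 0.20 SE, adjusted p 0.000429). Gfi1b, a repressor of the same lineages, was also lower, at 71.2 ± 19.3 FPKM after tunicamycin and 119 ± 26.1 FPKM after DMSO (SD, n = 5 each), with some overlap (log2 change -0.75 ± 0.19 SE, adjusted p 0.00738). Gata2, the GATA factor of stem and progenitor cells, was higher: 122, 138, 154, 133 and 113 FPKM in the tunicamycin libraries, against 52.0, 87.2, 58.8, 60.1 and 51.8 FPKM in the DMSO libraries. The groups were separate (log2 change 1.10 ± 0.15 SE, adjusted p 0.000102).

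The ETS factor Fli1, which activates Itga2b and Gp9, rose without overlap between groups and stood at 62.1 ± 8.47 FPKM after tunicamycin and 34.7 ± 8.23 FPKM after DMSO (log2 change 0.84 ± 0.16 SE, adjusted p 0.00112). Runx1 was at 36.4 ± 4.97 FPKM after tunicamycin and 22.5 ± 2.62 FPKM after DMSO (log2 change 0.66 ± 0.12 SE, adjusted p 0.000866, or 0.41 with equal medians). Mafk, a small MAF partner of NF-E2, and the ETS factor Erg were among the 3 largest rises of the list together with Gata2. Mafk was at 33.8 ± 3.53 FPKM after tunicamycin and 15.9 ± 2.15 FPKM after DMSO (log2 change 1.04). Erg was at 16.1 ± 2.66 FPKM after tunicamycin and 7.43 ± 2.00 FPKM after DMSO (log2 change 1.04). Nfe2 itself, which controls Tubb1 and platelet release, was at 212 ± 48.9 FPKM after tunicamycin and 152 ± 38.2 FPKM after DMSO and did not pass (log2 change 0.49 ± 0.20 SE, adjusted p 0.0588). It did so without Tunicamycin replicate 1 (adjusted p 0.0267), without DMSO replicate 4 (adjusted p 0.0328), with TPM scaling (adjusted p 0.0216) and with quantile normalization (adjusted p 0.03). The rises of this list numbered 7 with equal medians (20.5% of all genes) and 7 without DMSO replicates 3 and 5 (22.1%). Tal1, a factor of stem cells and both lineages, did not pass (log2 change -0.11), but it passed as lower with equal medians (-0.35, adjusted p 0.0187) and quantile normalization (-0.30, adjusted p 0.0409). Of the 10 erythroid markers 6 fell and 4 rose in the same libraries, against 15.4% and 29.9% of all genes. Klf1 (log2 change -2.26 ± 0.32 SE, adjusted p 0.000152) and Car1 (log2 change -3.18 ± 0.40 SE, adjusted p 7.09e-05) were among the falls. The other 4 rose without overlap, among them the globin gene Hbb-bs, at 2782 ± 1066 FPKM after tunicamycin and 58.1 ± 32.8 FPKM after DMSO (log2 change 5.68, adjusted p 7.37e-07). Hba-a2, Alas2 and Slc4a1 had log2 changes of 5.07, 3.82 and 2.09.

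**Figure D5:**
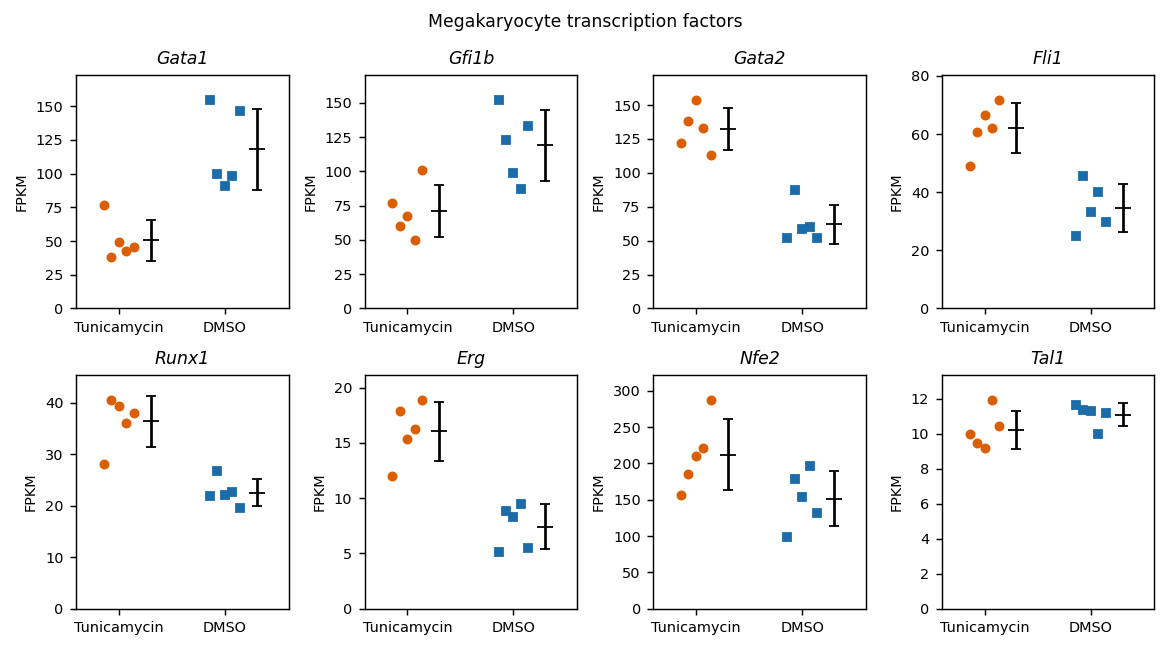
FPKM of 8 transcription factors in each library, tunicamycin as orange circles and DMSO as blue squares, with the mean and SD beside them (n = 5 per group). Gata1 and Gfi1b are lower after tunicamycin, Gata2, Fli1, Runx1 and Erg higher, and Nfe2 and Tal1 did not pass the test, though Tal1 passed as lower with equal medians or quantile normalization.

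In thrombopoietin signalling 9 of 17 genes rose, 0 fell and 8 did not pass, against 29.9% higher and 15.4% lower over all genes. The largest rises of the list were those of Socs3, Pim1 and Socs1. The feedback inhibitor Socs3 was at 44.2 ± 11.5 FPKM after tunicamycin and 4.61 ± 0.637 FPKM after DMSO (log2 change 2.98), and Socs1 at 4.72 ± 2.03 FPKM after tunicamycin and 1.25 ± 0.316 FPKM after DMSO (1.29, or 0.61 with a pseudocount of 5). The kinase gene Pim1 was at 48.6 ± 38.1 FPKM after tunicamycin and 13.8 ± 2.39 FPKM after DMSO (log2 change 1.42 ± 0.42 SE, adjusted p 0.0146), with no call without DMSO replicates 3 and 5 (adjusted p 0.0576). With TPM scaling 14 of the 17 rose, against 37.6% of all genes. With equal medians the transcription factor gene Stat5a passed as lower (-0.38, adjusted p 0.0135), as 27.1% of all genes did. Many of these genes respond to other cytokines as well.

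Platelet genes outside the 34 were described by 3 further lists, also chosen with earlier results of these data known. Of 28 receptors and signalling genes 23 rose and 0 fell, against 29.9% and 15.4% of all genes. With equal medians 14 rose, against 20.5% of all genes. With quantile normalization 15 rose, against 23.3%, and without DMSO replicates 3 and 5 it was 15, against 22.1%. Cd36, a thrombospondin receptor that macrophages and endothelium also carry, was at 38.7 ± 17.8 FPKM after tunicamycin and 4.40 ± 1.52 FPKM after DMSO (log2 change 2.80 ± 0.28 SE, adjusted p 1.58e-05). Fcer1g, the ITAM chain that pairs with GPVI and is shared with myeloid cells, was at 346 ± 94.6 FPKM after tunicamycin and 118 ± 29.6 FPKM after DMSO (log2 change 1.54 ± 0.22 SE, adjusted p 0.000149). P2ry12, the ADP receptor, was at 7.23 ± 2.84 FPKM after tunicamycin and 2.99 ± 2.20 FPKM after DMSO (log2 change 1.14 ± 0.33 SE, adjusted p 0.0145), with 0.70 and no call without DMSO replicates 3 and 5, 0.62 with a pseudocount of 5, and no call with equal medians or quantile normalization (adjusted p 0.0538 for equal medians and 0.0659 for quantiles).

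Of 30 tested genes of granule cargo, granule biogenesis and secretion 19 rose and 0 fell, against 29.9% and 15.4% of all genes. The largest rises were those of secreted proteins that stromal cells and macrophages also make. They were Sparc (149 ± 63.7 FPKM after tunicamycin and 43.2 ± 28.2 FPKM after DMSO), Igf1 (13.6 ± 3.55 FPKM after tunicamycin and 3.95 ± 0.949 FPKM after DMSO) and Pros1 (14.1 ± 6.56 FPKM after tunicamycin and 4.15 ± 0.984 FPKM after DMSO), with log2 changes of 2.04, 1.54 and 1.47. Stromal markers rose in the same libraries in 7 of 8 tested cases, with a summed level of 215 to 905 FPKM after tunicamycin and 27.3 to 173 FPKM after DMSO. That count was 4 without DMSO replicate 1, 4 without DMSO replicates 3 and 5, and 3 to 8 over all alternatives. F13a1, the coagulation factor XIII subunit of platelets, did not pass (log2 change 0.30 ± 0.21 SE, adjusted p 0.279, with 2.31 ± 0.317 FPKM after tunicamycin and 1.82 ± 1.04 FPKM after DMSO). Srgn, serglycin of granules, did not pass either (log2 change 0.04 ± 0.15 SE, adjusted p 0.872).

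The platelet cytoskeleton list was mixed, with 9 of 21 tested genes higher and 3 lower. Over all genes 29.9% were higher and 15.4% lower, so the 3 falls are near that share. The tropomyosin gene Tpm4 was at 54.4 ± 13.3 FPKM after tunicamycin and 18.8 ± 7.52 FPKM after DMSO (log2 change 1.55 ± 0.26 SE, adjusted p 0.000448). The focal adhesion gene Zyx was at 110.2 ± 15.5 FPKM after tunicamycin and 45.1 ± 14.6 FPKM after DMSO (log2 change 1.32 ± 0.19 SE, adjusted p 0.000156), and Parva at 1.79 ± 0.661 FPKM after tunicamycin and 0.329 ± 0.182 FPKM after DMSO (log2 change 1.05, or 2.17 with a pseudocount of 0.1 and 0.34 with one of 5). Parva reached 1 FPKM in 0 DMSO libraries, so it entered the test through the treated group, where it is high, and its call is no independent result. Tuba4a, an alpha tubulin of platelets, fell to 124, 98.0, 108, 109.5 and 75.9 FPKM in the tunicamycin libraries, against 242, 205, 234, 221 and 218 FPKM in the DMSO libraries (log2 change -1.13 ± 0.13 SE, adjusted p 3.6e-05). The 2 smaller falls were those of the actin regulators Pfn1 (log2 change -0.56 ± 0.17 SE, adjusted p 0.0158) and Cfl1 (log2 change -0.37 ± 0.14 SE, adjusted p 0.0423). Neither passed with TPM scaling (adjusted p 0.0596 for Pfn1 and 0.193 for Cfl1) or quantile normalization (log2 change -0.27 for Pfn1 and -0.09 for Cfl1). Cfl1 also lost its call without Tunicamycin replicate 2, 3 or 4 or DMSO replicate 1, 2, 4 or 5 (adjusted p 0.0637 to 0.105) and without DMSO replicates 3 and 5 (0.0736). With no filter on low values neither passed (adjusted p 0.0549 for Pfn1 and 0.156 for Cfl1). Over all 5 lists, 72 of 116 tested genes passed as higher and 5 as lower, where the shares of all genes were 29.9% and 15.4%. All 5 lists were chosen with earlier results of these data known, so these counts are no independent support. The 72 include Parva and Pdgfa, which reached 1 FPKM in 0 DMSO libraries. The median log2 change of the 116 was 0.55, against 0.18 over all genes tested. Groups did not overlap for 53 of them in the higher direction and 2 in the lower, against 19.2% and 11.0% of all genes.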

How the data were processed

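RNA from 10 libraries was compared, 5 per group, grouped by the treatment in the sample titles. The authors deposited FPKM values (fragments per gene length and library size) for 9 libraries. Tunicamycin replicate 1 was deposited without decimals and was treated as a score on the same scale. Per the submitters' processing notes, Cufflinks 2.1.1, Bowtie 0.12.9, DESeq2 and HTSeq were used with build mm10, and the notes as held here give neither their roles nor the annotation. The labels' protocols state miRNeasy extraction and Geo-seq amplification.

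Symbols were matched for 51389 of 51670 gene models. Genes of at least 1 FPKM in at least 5 libraries (14727) were tested with limma 3.58.1 (R 4.3.3, mean-variance trend, group as the only term) on log2(FPKM + 1), with Benjamini-Hochberg adjustment over all of them and a threshold of 0.05. This scale understates the change of low genes. The fit was tested on simulated data. Single ratios were compared by exact two-sided permutation over 252 assignments, whose smallest p is 0.00794. Read depth was estimated from steps of low FPKM values times GENCODE M21 exon length, where 84.2% to 96.1% of values lay within 0.05 reads of a whole number. Lengths from that annotation may differ from the authors' own, so no count test was run.

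Values in every library are given for members called with a log2 change of at least 1, members with a mean of at least 10 FPKM in either group, and the chemokine, integrin and GPIb-IX-V genes. Of the other lists the 3 largest rises and falls that passed are named, plus the regulators Gata1, Gata2, Fli1, Runx1, Nfe2 and Gfi1b. A further gene of this rule is not reported here. Other genes named (Stat5a, Tal1, Pdgfa, F13a1, Srgn, Ilk, Vamp3 and the markers) were chosen after their values were seen. The members and all lists were chosen with earlier results of these data known. The alternatives were other pseudocounts, filters, scalings and subsets of libraries, and a block of replicate numbers. Figures were drawn with matplotlib 3.10.9 in Python 3.11.15.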

Additional observations from a re-analysis of the deposited data

Results flagged for a closer look

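Among 68 sets of 5 libraries (34 members in each group), 2 held a library far from the others, where chance gives about 1 in 20. Gp6 in DMSO replicate 1 was at 4.94 FPKM, and the next highest DMSO library was at 1.71 FPKM. Lat in Tunicamycin replicate 5 was at 78.4 FPKM, and the next highest treated library was at 46.5 FPKM.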

How the results depend on the processing

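Across 21 alternatives the number of members that rose was 19 (equal medians) to 29 (replicate block) and no member fell, against 26 and 0 in the reported fit. Of all genes 29.9% rose in the reported fit, 20.5% with equal medians and 37.6% with TPM scaling. No such share was taken for the replicate block or with single libraries left out. With 1 library left out in turn it was 23 to 27, with 0 lower throughout. Of the 33 tested members 18 rose under all 21 alternatives, 3 (Ppbp, Angpt1 and Gp6) under none, and 30 kept a positive log2 change throughout. The exceptions were Ppbp, Angpt1 and Tubb1, none of them called in the reported fit. Genes of the 5 further lists rose in 72 cases, 61 to 82 with 1 library left out and 4 to 5 lower. The lower count of 5 became 3 with no filter on low values, 3 with TPM scaling and 8 with equal medians. Of all genes 15.4% fell in the reported fit, 11.5% with TPM scaling and 27.1% with equal medians. Over all genes the median change, 0.18 on the log2 scale, became 0.28 with TPM scaling and -0.04 with equal medians. Vamp3 had a log2 change of -0.0012 with equal medians. With the replicate block 29 members rose and 0 fell, and 73 further genes rose and 4 fell. The replicate numbers are not shown to pair the libraries, since same-numbered deviations correlated at 0.248, 0.232, 0.0850, 0.0741 and 0.0207, and Tunicamycin replicates 4 and 5 did not correlate best with their own number. With the block Tubb1, Thbs1, Alox12, Trpc6 and Nfe2 passed, and Ptgs1, Cfl1 and Vamp3 did not (of the genes named in the report). Whole-number values limit low genes in Tunicamycin replicate 1.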

Other observations

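Ilk, which encodes integrin-linked kinase and stands in the cytoskeleton list, was as low as Gp1bb and was not tested. It was at 0, 0.212, 0.231, 0.0866 and 0.495 FPKM in the tunicamycin libraries, against 0.0576, 0.125, 0.0235, 0.102 and 0.0429 FPKM in the DMSO libraries. Of its 2744 exon bases 76.7% are shared with exons of Taf10 on the opposite strand and 12.9% with Rrp8, which were at most 3.02 and 19.3 FPKM. Values of such overlapping genes are uncertain.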
